A study of Homo sapiens with 414 samples.

Results

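The HOXB genes are a run of homeobox transcription factor genes on chromosome 17, and 9 of them, HOXB1 to HOXB9, are described here. They were taken by name from a table of 19084 genes, and no measured value chose them. All 9 passed the filter on low values and are among the 16318 genes tested. HOXB1 reached the filter, 1 or more TPM (a transcript's share of all transcripts, scaled to a fixed library total) in 5 or more libraries, only through the retinoid libraries, with 5 of them and 1 vincristine library. HOXB7 did so too, with all 22 retinoid libraries, 4 of other toxic compounds and 0 non-toxic ones. HOXB6, HOXB8 and HOXB9 also had 0 non-toxic libraries at that level, with 22 retinoid libraries each and 6, 11 and 9 of other toxic compounds. For HOXB1 and for HOXB6 to HOXB9, passing the filter thus rested on toxic libraries alone. Their calls against non-toxic libraries, and any count of members called, are no independent evidence of a difference.

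The study exposed H1-NPC, neural progenitors derived from human embryonic stem cells of the H1 line, to single chemicals in 48-well plates and sequenced RNA from the lysed wells on up to 11 days, from day 1 to day 39. It holds 22 retinoid libraries and 392 others, 1 for each compound and day, and classes 29 compounds as toxic and 16 as non-toxic. All cultures came from thawed cells expanded with FGF2, and exposure began on the day of seeding, in a medium listed without FGF2. Every culture therefore shares the cell line, the expansion and the medium, and differs in compound and day.

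The 2 retinoids were all-trans retinoic acid at 1.7 µM and isotretinoin, its 13-cis stereoisomer, at 0.5 µg/ml, which computes to 1.66 µM, with 11 libraries each. The non-toxic libraries served as same-day controls, 7 to 16 of them on each day, and came from Acetaminophen, Amoxicillin, Aspirin, DMSO (0.1%), Ficoll 400, Fructose, Glucosamine, Glycerol, Glyphosate, Ibuprofen, Naproxen sodium, PEG 3350, PVP, Saccharin, Sorbitol and Sucrose. The other 27 toxic compounds gave 244 libraries. They were 2-Imidazolidinethione, 5-Fluorouracil, Amiodarone, Arsenic, Benzene, Bioallethrin, Bis-I, Busulfan, Cadmium, Carbamazepine, Cytosine Beta-D-arabinofuranoside, Dexamethasone, Diazinon, Dioxin, Hydroxyurea, K252a, L-phenylalanine, Lead acetate, Maneb, Monosodium glutamate, Okadaic acid, PD166866, Permethrin, Propylthiouracil, Thalidomide, U0126 and Vincristine. Nothing in the labels says that wells of different days or compounds came from separate cultures, so the p-values measure the spread between these wells, which may be technical.

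HOX genes give cells their position along the head-to-tail axis, and their order along a cluster follows the order in which they are switched on and the level of the body at which they act. In the HOXB cluster the low-numbered genes lie toward the 3′ end and act in the hindbrain, and the high-numbered genes lie toward the 5′ end and act in the spinal cord. Retinoic acid binds nuclear receptors of the RAR family, which sit on DNA with RXR partners, and is a standard means of giving neural progenitors a caudal identity.

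In the RefSeq annotation HOXB4 lies within the span of HOXB3, and HOXB2, HOXB3, HOXB5 and HOXB6 overlap antisense or long noncoding genes. The library kit named in the labels (TruSeq RNA v2) does not mark strand, so reads of these members and of a partner on the other strand cannot be told apart.

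The HOXB1 promoter was the only one of the 9 in the RefSeq promoter table used here, and is shown because HOXB1 was the one member that stayed under 5 TPM under both retinoids. It covers 250 bases before to 50 after the start, on the minus strand of chr17:48530962-48531261 (GRCh38.p14), and is written 5′ to 3′.
HOXB1 promoter: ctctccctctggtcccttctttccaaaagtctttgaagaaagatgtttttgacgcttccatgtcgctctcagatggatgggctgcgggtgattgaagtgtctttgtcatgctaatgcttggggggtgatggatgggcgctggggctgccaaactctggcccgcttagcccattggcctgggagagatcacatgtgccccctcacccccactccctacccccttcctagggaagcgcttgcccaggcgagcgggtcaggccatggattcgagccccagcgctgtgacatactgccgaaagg
Searched on both strands, this window held no AGGTCA and no AGTTCA, the core hexamers of many retinoic acid response elements, and no direct repeat of either at a spacing of 5 bases. Other hexamers, such as the GGGTCA in this window, other spacings and sequence outside it were not searched. The part of this sequence in the level of HOXB1 was not tested. Of 35116 promoters of the same length, 13.8% held AGGTCA and 10.4% held AGTTCA. The direct repeats stood in 0.00569% and 0.0114% of them.

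The deposited values are TPM with no read counts, so depth is unknown and a member listed at 0 may still be present below the detection of that library. TPM is a share of each library's RNA, so more cells with a transcript and more transcript per cell cannot be told apart. Genes at 1 TPM or more numbered 11861 to 14260 in the non-toxic libraries, 13321 to 14392 under all-trans retinoic acid and 13335 to 14222 under isotretinoin. The ibuprofen library of day 8 stood apart from the other non-toxic ones, with the lowest of those gene counts, and the vincristine library of day 4 stood apart with the highest count of all, 17188. Neural progenitor markers were present as labelled, with SOX2 at a mean of 233 TPM and NES, a progenitor filament, at 1036 TPM over the non-toxic libraries.

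Under the 2 retinoids all 9 members rose above the same-day non-toxic libraries, in limma fits on log2(TPM + 1) with Benjamini-Hochberg adjustment over all tested genes. Higher calls took 21.2% of all tested genes under all-trans retinoic acid and 20.2% under isotretinoin. For HOXB2 to HOXB9 the retinoid library was above every same-day non-toxic library on 11 of 11 days under either isomer. For HOXB1 that held on 9 days under all-trans retinoic acid and 6 under isotretinoin. The share of all tested genes that did so is not given here, so these counts only describe the members. All 9 stayed called when any single day was left out, day 8 included.

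HOXB1, the hindbrain gene at the 3′ end, stayed low throughout. Under all-trans retinoic acid it was at 3.36 TPM on day 1, 1.39 on day 2 and 4.55 on day 3, and between 0 and 0.75 TPM on every later day. Under isotretinoin it was listed at 0 on day 1, reached 1.25 TPM on day 2 and 1.76 on day 3, and was between 0 and 0.62 TPM afterwards. The non-toxic libraries listed HOXB1 at 0 in all but 2, and none passed 0.32 TPM. Its difference from them was 0.84 ± 0.07 (log2, SE; adjusted p = 2.66e-21) under all-trans retinoic acid and 0.45 ± 0.05 (adjusted p = 2.58e-15) under isotretinoin. On this scale a low gene's change is understated.

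HOXB2 and HOXB3, hindbrain factors, climbed to a maximum on days 6 to 8 and then declined. HOXB2 under all-trans retinoic acid stood at 16.5 TPM on day 1, 98.1 on day 2, 293 on day 3, 546 on day 4, 765 on day 6 and 795 on day 8. It then stood at 643 on day 10, 405 on day 15, 318 on day 21, 262 on day 27 and 188 TPM on day 39. Its last level was thus 23.6% of its highest. HOXB3 went from 14.4 TPM on day 1 to 682 on day 6 and 201 on day 39 under all-trans retinoic acid, and from 6.68 to 626 and 182 TPM on the same days under isotretinoin. The differences under all-trans retinoic acid were 6.67 ± 0.19 for HOXB2 (adjusted p = 1.57e-72) and 7.78 ± 0.16 for HOXB3 (adjusted p = 4.16e-90).

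HOXB4, which marks the caudal hindbrain, was sharper. It was at 13.5 TPM on day 1, 355 on day 4 and 159 on day 8 under all-trans retinoic acid, and lay between 119 and 147 TPM from day 10 on. Isotretinoin gave 11.1, 300 and 152 TPM on days 1, 4 and 8, and 122 to 137 from day 10 on. On day 39 HOXB4 was at 40.2% and 44.7% of its highest level under the 2 isomers. Its difference under all-trans retinoic acid was 6.91 ± 0.12 (adjusted p = 3.23e-100).

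HOXB5 was the most abundant member at the start and the first after HOXB1 to near its highest level. Under all-trans retinoic acid it was at 181 TPM on day 1, 725 on day 2, 931 on day 3, 860 on day 4 and 620 on day 6, and later lay between 485 and 832 TPM. Under isotretinoin it was at 95.8, 642, 979, 925 and 677 TPM on those 5 days, and later lay between 546 and 807. All 22 retinoid libraries were far above the non-toxic ones, of which 105 listed HOXB5 at 0 and the highest stood at 2.28 TPM. The difference was 9.09 ± 0.09 under all-trans retinoic acid (adjusted p = 6.07e-135).

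HOXB6 followed HOXB4 upward but fell back less. It was at 23.8 TPM on day 1, 820 on day 4, 357 on day 21 and 561 on day 39 under all-trans retinoic acid, and at 8.97, 802, 471 and 496 TPM on those days under isotretinoin. HOXB7 was slower, and its highest level was the lowest among the members from HOXB5 to HOXB9. Under all-trans retinoic acid it was at 7.41 TPM on day 1, 91.2 on day 4, 204 on day 6 and 278 on day 8, and then between 310 and 385 TPM. The differences under that isomer were 8.51 ± 0.13 for HOXB6 (adjusted p = 6.68e-110) and 7.05 ± 0.16 for HOXB7 (adjusted p = 9.42e-84), which passed the filter only through the retinoid libraries.

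HOXB8, a factor of the spinal cord and trunk, reached the highest level of any member. Under all-trans retinoic acid it was at 115 TPM on day 1, 479 on day 2, 930 on day 3, 1529 on day 4, 2236 on day 6 and 2787 on day 8. It then stood at 2968 on day 10, 2983 on day 15, 2746 on day 21, 2107 on day 27 and 2325 TPM on day 39. Isotretinoin took it from 58.8 TPM on day 1 to 3069 on day 15. HOXB8 was listed at 0 in 141 non-toxic libraries, and the highest of the others stood at 0.74 TPM. The differences were 10.46 ± 0.13 (adjusted p = 7.52e-123) under all-trans retinoic acid and 10.31 ± 0.15 (adjusted p = 1.29e-111) under isotretinoin, and those were the 2 largest among the 18 member tests against the non-toxic libraries.

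HOXB9, the most 5′ of the members, had the smallest share of its own maximum on days 1 and 3 among HOXB2 to HOXB9. All-trans retinoic acid gave 5.11 TPM on day 1, 47.1 on day 2, 160 on day 3, 456 on day 4, 1200 on day 6 and 1813 on day 8. It stood at 2331 on day 10, 2230 on day 15, 1827 on day 21, 1638 on day 27 and 1573 TPM on day 39. Isotretinoin gave 1.41, 19.2, 83.2, 288, 837 and 1398 TPM on days 1, 2, 3, 4, 6 and 8. It was at 1876 TPM on day 15 and 1284 on day 39. HOXB9 was lower under isotretinoin than under all-trans retinoic acid on each of these days. The differences from the non-toxic libraries were 9.02 ± 0.24 (adjusted p = 4.35e-75) and 8.39 ± 0.27 (adjusted p = 9.09e-64).

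**Figure D1:**
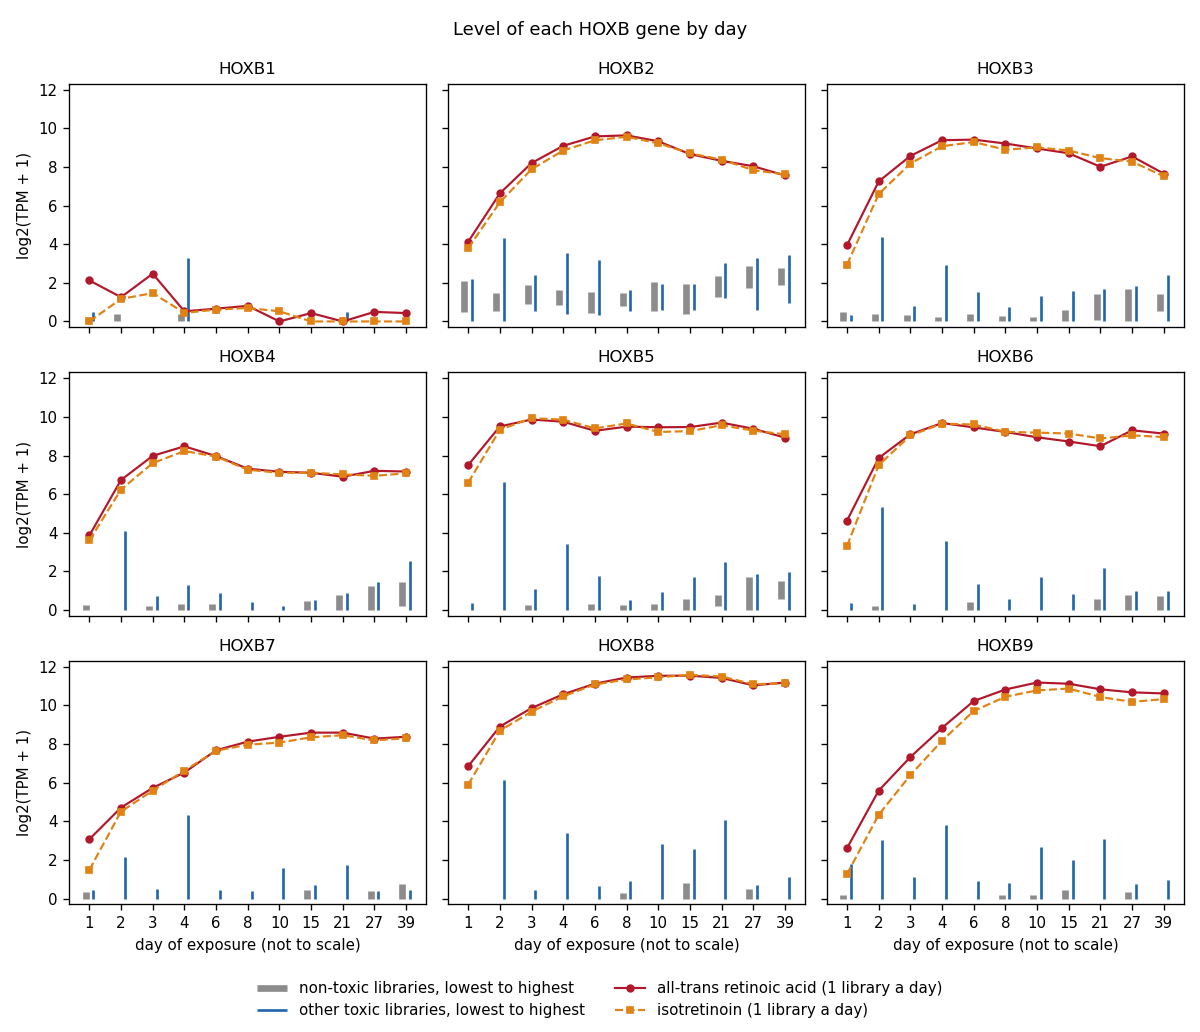
Level of each HOXB gene as log2(TPM + 1) against day of exposure, with 1 library a day for each retinoid, grey bars from the lowest to the highest non-toxic library and blue bars from the lowest to the highest library of the other toxic compounds. HOXB8 under all-trans retinoic acid climbs from 115 TPM on day 1 to 2983 on day 15, and HOXB1 never passes 4.55 TPM.

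The order along the cluster was partial. As a description, the day on which a member was at 50% or more of its highest level correlated with its number in the cluster at a Spearman rho of 0.67 under all-trans retinoic acid and 0.68 under isotretinoin over 9 genes, which share their libraries. Without HOXB1 the values were 0.52 and 0.58 over 8 genes. HOXB1 reached that level on day 1 under all-trans retinoic acid and day 2 under isotretinoin. HOXB5 reached it on day 2 under both isomers, ahead of HOXB3 and HOXB4 on day 3 and HOXB2 on day 4 under all-trans retinoic acid. HOXB7 and HOXB9 reached it on day 6, while HOXB8, which lies between them, did so on day 4. Under isotretinoin HOXB3 came on day 4, HOXB8 on day 6 and HOXB9 on day 8.

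Switching on showed no order at this sampling. Under all-trans retinoic acid all 9 members were at 1 TPM or more and above every same-day non-toxic library on day 1. Under isotretinoin 8 were, and HOXB1 followed on day 2. With a bar of 5 TPM the counts on day 1 were 8 and 6. The share of all tested genes that met either bar is not given here. The day 1 level as a share of the member's highest level, from HOXB2 to HOXB9, ran against the cluster number only weakly, at a rho of -0.17 and -0.38 over 8 genes. HOXB5 stood out there at 19.4% under all-trans retinoic acid, against 0.22% for HOXB9.

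The clearest order was in how much of the maximum was left at the end. On day 39 under all-trans retinoic acid HOXB2 stood at 23.6% of its highest level, HOXB3 at 29.4%, HOXB4 at 40.2%, HOXB5 at 52.0% and HOXB6 at 68.4%. HOXB7 stood at 86.2%, HOXB8 at 77.9% and HOXB9 at 67.5%. The rho with the cluster number was 0.83 under all-trans retinoic acid and 0.90 under isotretinoin over these 8 genes. From HOXB2 to HOXB6 the retained share thus increased at every step, and it did not above HOXB7.

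**Figure D2:**
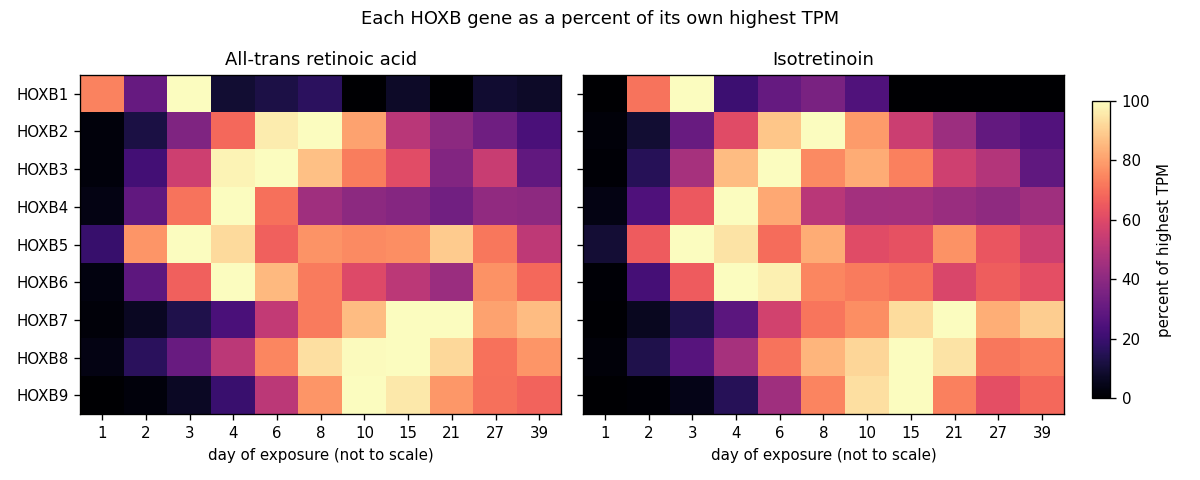
Each HOXB gene as a percent of its own highest TPM, by day of exposure, 1 library a day, for all-trans retinoic acid (left) and isotretinoin (right). HOXB1 is brightest on day 3, HOXB4 on day 4, HOXB2 on day 8, and HOXB7 on day 21 in both panels.

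A fit of the retinoid effect on days 8 to 39 minus that on days 1 to 6, both isomers pooled, called 5 members, where 43% of all tested genes were called in either direction. The effect grew for HOXB9 by 4.20 ± 0.31 (adjusted p = 3.08e-26), for HOXB7 by 2.91 ± 0.21 (adjusted p = 2.41e-27), for HOXB8 by 1.99 ± 0.19 (adjusted p = 8.29e-19) and for HOXB6 by 0.91 ± 0.24 (adjusted p = 0.000969). It shrank for HOXB1, at -0.78 ± 0.09 (adjusted p = 2.96e-13). HOXB2 at 0.69 ± 0.30 (adjusted p = 0.0526), HOXB3 at 0.54 ± 0.28 (adjusted p = 0.11), HOXB4 at -0.04 ± 0.20 (adjusted p = 0.911) and HOXB5 at -0.11 ± 0.15 (adjusted p = 0.612) did not pass. Day 1 moved this contrast most. Without it, HOXB6 was at -0.09 (adjusted p = 0.551), HOXB8 at 1.26, and HOXB4 and HOXB5 were called lower at -0.82 (adjusted p = 1.73e-08) and -0.62 (adjusted p = 6.22e-06). With a pseudocount of 0.1 HOXB6 lost its call (0.42, adjusted p = 0.367), and HOXB4 (-0.85, adjusted p = 0.0448) and HOXB5 (-1.21, adjusted p = 0.00167) were called lower. HOXB2 passed without any 1 of days 3, 4, 6, 21, 27 and 39, at 0.80 to 1.26, and HOXB3 without any 1 of days 3, 4, 6 and 39. HOXB7, HOXB8 and HOXB9 stayed called higher, and HOXB1 lower, without any single day.

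The make-up of the summed HOXB RNA moved toward the 5′ genes. The 9 members together held 379 TPM on day 1 under all-trans retinoic acid, 5325 on day 4, 8108 on day 10 and 5807 on day 39, so that 0.811% of the transcripts of the day 10 library came from this cluster. Isotretinoin gave 197, 4829, 7262 and 5404 TPM. HOXB5 made up 47.7% of the sum on day 1 and 8.34% on day 39 under all-trans retinoic acid. HOXB8 and HOXB9 together went from 31.5% to 67.1%, and from 30.5% to 65.4% under isotretinoin. HOXB1 to HOXB4 together were at 12.6% on day 1, 29.5% on day 4 and 9.15% on day 39 under all-trans retinoic acid. HOXB5 ranked highest on days 1 to 3 and HOXB8 on every later day, in both time courses, and HOXB9 ranked second from day 6 on.

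**Figure D3:**
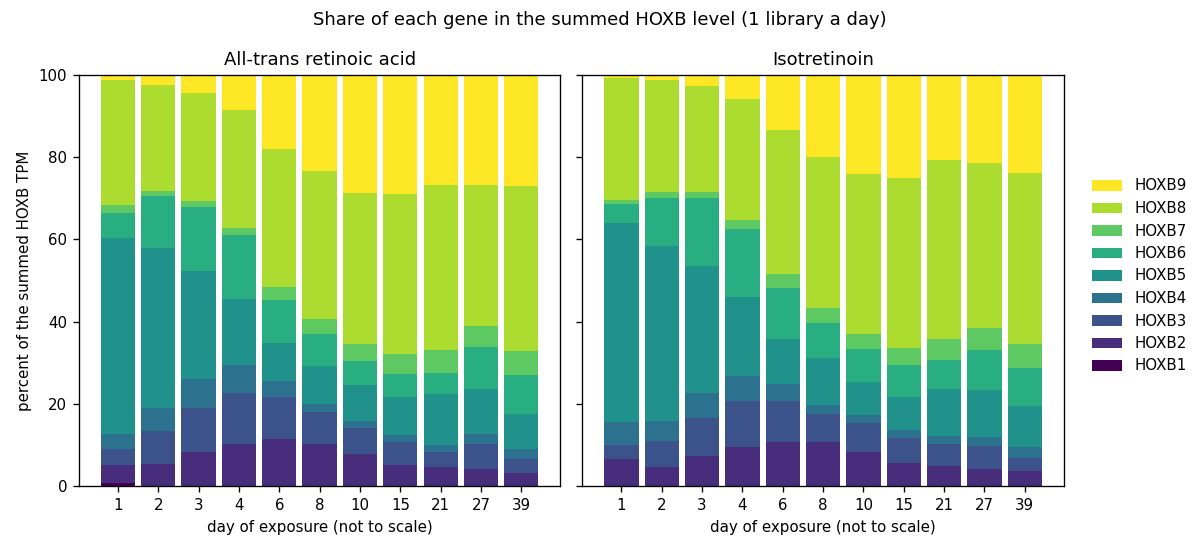
Share of each gene in the summed TPM of the 9 HOXB genes by day, 1 library a day, for each retinoid, with HOXB1 at the bottom and HOXB9 at the top of each bar. The share of HOXB5 shrinks from 47.7% to 8.34% and that of HOXB8 and HOXB9 together grows from 31.5% to 67.1% under all-trans retinoic acid.

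The members' differences from the same-day non-toxic mean were correlated over the 22 retinoid libraries, which share days and controls. As a description, Pearson's r was 0.98 to 0.99 among HOXB7, HOXB8 and HOXB9. Between HOXB2 and HOXB3 it was 0.97, and between HOXB3 and HOXB4 0.95. The ends of the cluster were not separate groups: HOXB6 had r = 0.93 with both HOXB3 and HOXB4 and 0.80 to 0.89 with HOXB7 to HOXB9, and HOXB8 had 0.78 with HOXB2 and 0.80 with HOXB3. HOXB5 had r = 0.90 with HOXB4 and 0.43 with HOXB9, and HOXB1 had r = -0.50 with HOXB9 and 0.19 with HOXB5.

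All-trans retinoic acid and isotretinoin differ in the geometry of 1 double bond of the side chain, and 1 pair of compounds was compared, at near-equal doses and on the same 11 days. HOXB9 was the only member called between them, where 1.06% of all tested genes were called. It was higher under all-trans retinoic acid by 0.63 ± 0.10 (log2, 95% interval 0.40 to 0.85, adjusted p = 0.0132) and on 11 of 11 days. The ratio of the levels was 3.62 on day 1, 2.45 on day 2, 1.92 on day 3, 1.58 on day 4 and 1.43 on day 6. It lay between 1.19 and 1.41 on the 6 later days. HOXB9 kept this call without any single day, but neither days 1 to 6 alone (0.94, adjusted p = 0.181) nor days 8 to 39 alone (0.37, adjusted p = 0.0616) gave it. Over its alternatives the adjusted p ran from 0.00197 to 0.181.

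The other 8 members were not called between the isomers, which does not show that they acted alike. Their differences had 95% intervals of -0.08 to 0.29 for HOXB5, -0.19 to 0.37 for HOXB6, -0.03 to 0.31 for HOXB8 and -0.01 to 0.53 for HOXB7. HOXB2 (0.05 to 0.27, adjusted p = 0.175), HOXB3 (0.00 to 0.47, adjusted p = 0.379) and HOXB4 (0.04 to 0.27, adjusted p = 0.212) had unadjusted intervals above 0. HOXB1 ranged from -0.02 to 0.80. On day 1 the isotretinoin level was the lower one for all 9 members, with ratios from 1.21 for HOXB4 to 4.12 for HOXB7 where both were above 0.

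In the cultures without a retinoid the cluster was near silent, and HOXB2 to HOXB6 were higher on day 39 than on day 1. Between day 1 and day 10 no member was called in the non-toxic libraries, where 76% of all tested genes were called in either direction and no member had an unadjusted p under 0.05. Between day 1 and day 39 the 5 members from HOXB2 to HOXB6 rose, where 44.3% of all tested genes rose. HOXB2 was at a median of 1.52 TPM on day 1 and 3.83 on day 39, a difference of 1.07 ± 0.12 (adjusted p = 1.89e-14). HOXB3 was at a median of 0 and 1.25 TPM (1.06 ± 0.09, adjusted p = 2.74e-23), and HOXB5 at 0 and 0.845 (0.93 ± 0.07, adjusted p = 4.43e-25). HOXB4 rose by 0.75 ± 0.07 and HOXB6 by 0.32 ± 0.05. HOXB7, HOXB8, HOXB9 and HOXB1 were at a median of 0 on both days and did not pass. On day 39 the summed HOXB level was 4.92 to 9.83 TPM over 14 non-toxic libraries, a median of 0.127% of the mean of the 2 retinoid libraries of that day.

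Genes next to the cluster were compared in their order on the chromosome. Of 17 measured neighbours, 15 were tested, of which 5 rose and 2 fell under all-trans retinoic acid, beside 3467 risen and 4312 fallen of all 16318 tested genes. SKAP1, a T-cell adaptor protein gene and the next gene beyond HOXB1, rose by 5.04 ± 0.18 (adjusted p = 2.11e-59). It was at 0.61 TPM on day 1, 17.5 on day 4, 79.4 on day 8, 131 on day 15 and 72.6 on day 39 under all-trans retinoic acid, and at 0, 9.69, 34.2, 103 and 61.3 TPM under isotretinoin. No non-toxic library passed 0.61 TPM, so SKAP1 passed the filter on low values without them. Its call against them, and its place in the count of risen neighbours, are no independent evidence of a difference. SKAP1 thus rose more than HOXB1, which lies between it and HOXB2, and like HOXB9 it was called higher under all-trans retinoic acid than under isotretinoin (0.64 ± 0.10, adjusted p = 0.00904), on 11 of 11 days.

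Beyond SKAP1 the differences were small. SNX11, a sorting nexin gene, rose by 0.95 ± 0.04 (adjusted p = 1.73e-46), with 45.0 to 70.6 TPM under all-trans retinoic acid against medians of 23.5 to 32.3 TPM in the non-toxic libraries. CBX1, a heterochromatin protein gene, rose by 0.46 ± 0.07 and NFE2L1, a stress-responsive transcription factor gene, by 0.18 ± 0.07. CDK5RAP3 fell by 0.31 and UBE2Z fell by 0.18. On the 5′ side HOXB13, the last gene of the cluster, was listed at 0 in all all-trans libraries and was too low to be tested, and PRAC (PRAC1 in RefSeq), between HOXB9 and HOXB13, did not pass (-0.03 ± 0.11). TTLL6, a tubulin polyglutamylase gene beyond HOXB13, rose by 0.88 ± 0.08 with a highest level of 4.61 TPM on day 4, and was near 0 from day 21 on. It did not pass 0.68 TPM in any non-toxic library, so its call has the same limit as that of SKAP1. SP2, COPZ2, CALCOCO2, ATP5G1, SNF8 and IGF2BP1 did not pass, and GIP was too low to be tested.

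**Figure D4:**
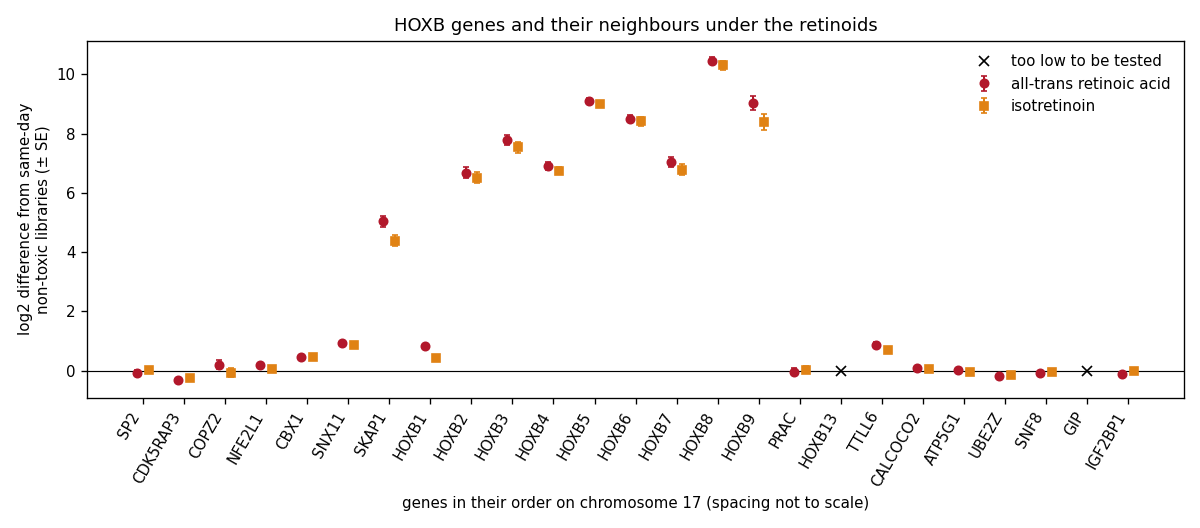
Log2 difference (± SE) from same-day non-toxic libraries for the HOXB genes and 16 neighbours in chromosomal order, under all-trans retinoic acid (circles) and isotretinoin (squares), with crosses for genes too low to be tested. The all-trans differences run from 6.67 to 10.46 for HOXB2 to HOXB9, stand at 0.84 for HOXB1 and 5.04 for SKAP1, and lie within 1 for the other neighbours.

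Over all libraries the genes most like the mean log2 level of the 9 members, by Pearson's r as a description, were HOXA5 (0.97), HOXC4 (0.97), HOXC5 (0.96), HOXA3 (0.96), HOXA4 (0.95), SKAP1 (0.94), PRDM12 (0.93), RARB (0.91), HOXA7 (0.90) and ADH1C (0.90). Within the 22 retinoid libraries HOXB7 and HOXB9 were each most like HOXA4 (r = 0.98 for both) and HOXB8 most like HOXA5 (0.98). The best match was NRAP for HOXB1 (0.82), RIMBP2 for HOXB2 (0.96), FGD5 for HOXB3 (0.94), ZNF703 for HOXB4 (0.92), MT1H for HOXB5 (0.88) and IL20 for HOXB6 (0.97). The later members thus had HOXA genes as closest match, and HOXB1 to HOXB6 did not.

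Part of the genes in the other HOX clusters responded as well. Of 29 other HOX genes 16 were tested, and 15 rose and 0 fell under all-trans retinoic acid, with a median difference of 2.45 beside 7.78 for the 9 HOXB members and -0.03 for all tested genes. HOXA5 had the highest mean level among them, 288 TPM, against 1928 TPM for HOXB8. HOXC4 averaged 136 TPM. HOXA5 rose by 7.16 ± 0.23, HOXC4 by 6.29 ± 0.21, HOXC5 by 4.46 ± 0.15 and HOXA4 by 4.39 ± 0.17. None of these passed 0.41 TPM in a non-toxic library, so their calls are no independent evidence of a difference. HOXD9 did not pass (-0.08 ± 0.05). Among the untested genes HOXA10 had the highest mean under all-trans retinoic acid, 0.236 TPM. Both were named after their values were seen.

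Cofactors and regulators of HOX genes were read from fixed lists. Of 10 TALE homeodomain genes, whose proteins bind DNA together with HOX proteins, 7 rose and 2 fell, with MEIS2 at 154 against 13.3 TPM (3.53 ± 0.10), PKNOX2 at 86.8 against 14.7 (2.26 ± 0.07), PKNOX1 up by 1.03 ± 0.06 and MEIS1 by 0.92 ± 0.06. Of 15 tested factors that act upstream of HOX genes 9 rose and 4 fell. RARB, a retinoic acid receptor and a direct target, rose by 4.68 ± 0.09 and RARA by 2.00 ± 0.09, and CYP26C1, which degrades retinoic acid, fell by 2.13. The other two enzymes of that family went the other way, with CYP26A1 up by 1.57 ± 0.18 and CYP26B1 by 1.72 ± 0.09, both named after their values were seen. CDX1, CDX2 and CDX4, caudal factors that activate HOX genes in the trunk, had means of 0.0564, 0.0155 and 0 TPM under all-trans retinoic acid. Of 17 Polycomb and trithorax genes, which keep HOX clusters silent or active, 3 rose and 6 fell under all-trans retinoic acid. Under isotretinoin 4 rose and 2 fell. Of all 16318 tested genes 3467 rose and 4312 fell under all-trans retinoic acid, and 3292 rose and 3427 fell under isotretinoin. The Polycomb and trithorax counts were near those shares and are not read as a response of that list. The TALE and upstream counts stand beside the same shares. The largest called differences of the Polycomb and trithorax list under all-trans retinoic acid were CBX7 at 0.38 ± 0.07, MLL at -0.38 ± 0.11, BMI1 at -0.34 ± 0.12 and JARID2 at 0.31 ± 0.09.

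Markers of cell types moved too, and their part in the HOXB values was not tested. The summed level of 7 neural progenitor markers was 808 to 2134 TPM under all-trans retinoic acid and 860 to 2419 under isotretinoin, against 1423 to 2857 in the non-toxic libraries. Under all-trans retinoic acid 0 rose and 4 fell, among them FABP7 (-1.92 ± 0.05) and HES5 (-1.32 ± 0.09). Of 6 neural crest markers 2 rose and 4 fell, with summed levels of 48.9 to 170 against 182 to 661 TPM. TFAP2A fell by 3.21, and SOX10 rose by 1.66 ± 0.16. Of 4 tested spinal motor neuron markers 3 rose and 1 fell, with ISL1 at 1.06 ± 0.09, and MNX1 averaged 0.0973 TPM. Paraxial mesoderm, a tissue that also expresses HOXB genes, had summed markers of 3.90 to 8.92 TPM against 1.08 to 13.7, with MSGN1 listed at 0 in every library of both groups and T at a mean of 0.0164 TPM. Of its 5 tested markers 2 rose and 0 fell. Of 8 tested forebrain and midbrain markers 1 rose and 2 fell, and of 7 neuron markers 2 rose and 3 fell. Of 5 pluripotency markers 1 rose and 1 fell, and of 4 endothelium and blood markers 2 rose and 0 fell. These marker counts are for all-trans retinoic acid, under which 3467 of 16318 tested genes rose and 4312 fell. Isotretinoin gave 5 risen and 1 fallen for forebrain and midbrain, 3 and 2 for neuron, and 0 and 1 for mesoderm. It gave 0 and 1 for pluripotency, and 2 and 1 each for endothelium and blood and for motor neuron. The progenitor and neural crest counts were the same, beside 3292 risen and 3427 fallen of all tested genes.

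Outside the retinoids the members were mostly at the edge of detection. Of 244 libraries of the other toxic compounds, 64 held at least 1 member at 1 TPM or more and above every same-day non-toxic library, and 5 held 5 or more members so. HOXB2 accounted for 50 of these libraries, HOXB3 for 24, HOXB5 for 16 and HOXB8 for 11. With a bar of 0.5 TPM the count was 89. The highest level of a member in any of the 392 other libraries passed the lowest retinoid level for all 9, and for HOXB2 to HOXB6 and HOXB8 it did so in the okadaic acid library of day 2.

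That okadaic acid library carried 8 members in proportions near those of the retinoid libraries. Okadaic acid, a protein phosphatase inhibitor given at 3 nM, had HOXB5 at 96.5 TPM, HOXB8 at 68.9, HOXB6 at 39.6, HOXB3 at 20.0, HOXB2 at 19.01, HOXB4 at 15.8, HOXB9 at 7.11 and HOXB7 at 3.39 on day 2. HOXB1 was listed at 0. Each of HOXB2 to HOXB9 stood at 14.1% to 22.5% of the mean of the retinoid libraries of that day. RARB was at 17.8 TPM in that library against at most 4.36 in the non-toxic ones and a retinoid mean of 102. DHRS3, a retinaldehyde reductase gene chosen after its values were seen, was at 82.8 TPM against at most 14.4 and a retinoid mean of 528. SKAP1 was at 0.29 TPM against a retinoid mean of 4.72. On days 1, 3 and 6 the summed HOXB level of okadaic acid was 2.39, 3.31 and 3.21 TPM, and on day 4 it was 13.7. A response to okadaic acid and a mix or carry-over of retinoid-treated material in that library cannot be told apart from these values, and this bears on every okadaic acid value that includes day 2.

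Over its 5 days okadaic acid had 8 members called higher, where 74.9% of all tested genes were called in either direction. HOXB5 differed by 2.06 ± 0.28 (adjusted p = 2.6e-10), HOXB8 by 1.56 ± 0.27 and HOXB6 by 1.47 ± 0.25. Without day 2 HOXB2 lost its call, and the other 7 kept theirs at smaller sizes, with HOXB5 at 0.92, HOXB9 at 0.68, HOXB8 at 0.42, HOXB6 at 0.50, HOXB3 at 0.42, HOXB4 at 0.30 and HOXB7 at 0.12.

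Vincristine, a microtubule poison given at 1 nM, had a different profile in its day 4 library. HOXB7 led at 18.8 TPM, followed by HOXB9 at 12.8, HOXB2 at 10.9, HOXB6 at 10.7, HOXB5 at 9.53, HOXB8 at 9.52, HOXB1 at 8.69 and HOXB3 at 6.61, and HOXB4 was listed at 0. HOXB13 was at 11.3 TPM there, RARB at 14.1 TPM against at most 4.29 in the non-toxic ones, and DHRS3 was listed at 0. The order of the members thus differed from that of the retinoid libraries of day 4, where HOXB8 led and HOXB1 was under 0.5 TPM. Vincristine had 7 members called, where 71% of all tested genes were called, and without day 4 only HOXB9 stayed called, at 0.09. The part of the unusual gene count of that library was not tested.

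Carbamazepine, an anticonvulsant that blocks sodium channels, at 10 µg/ml, had a trace that came and went. Its summed HOXB level was at most 2.50 TPM on days 1 to 8, then 20.0 on day 10, 15.9 on day 15 and 41.1 on day 21, and 6.83 and 6.18 TPM on days 27 and 39. HOXB8 led on those 3 days at 6.14, 4.84 and 15.7 TPM, followed by HOXB9 at 5.30, 2.94 and 7.38. The sums were 0.26%, 0.21% and 0.608% of the same-day retinoid means. RARB was at 4.58, 3.16 and 4.06 TPM on those days, against at most 4.54, 3.1 and 4.02 in the non-toxic libraries. SKAP1 was at 0.34, 0.27 and 0.85 TPM against at most 0.25, 0.61 and 0.42. DHRS3 stayed under the highest same-day non-toxic library on each of these days. Whether retinoid-treated material was in these libraries was not tested. Carbamazepine had 5 members called higher, where 4.9% of all tested genes were called: HOXB8 by 0.89 ± 0.13 (adjusted p = 8.07e-07), HOXB9 by 0.72 ± 0.10 (adjusted p = 8.8e-07), HOXB6 by 0.42 ± 0.08, HOXB7 by 0.37 ± 0.07 and HOXB5 by 0.31 ± 0.10. HOXB5 lost its call when any of 6 days was left out, and HOXB8 was at 0.58 without day 21.

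**Figure D5:**
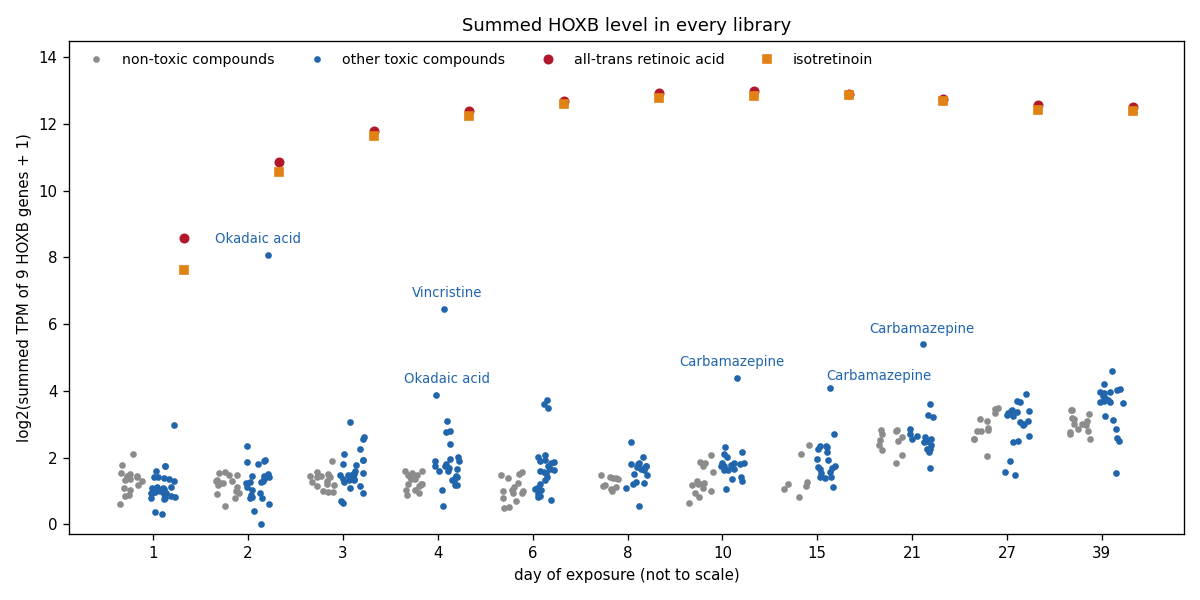
Summed TPM of the 9 HOXB genes as log2(sum + 1) in every library, by day of exposure and class of compound, with points spread sideways for visibility. The okadaic acid library of day 2 (270 TPM), the vincristine library of day 4 (87.4 TPM) and the carbamazepine libraries of days 10, 15 and 21 stand between the retinoid libraries and the other libraries of the same day.

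Across 26 other toxic compounds with 2 or more libraries, 83 of 234 member tests (35.5%) were called, 81 higher and 2 lower, where 31% of all gene tests were called. The overall share was thus near the background. Single members differed: HOXB8 was called higher in 22 of 26 compounds and HOXB9 in 21, against 1 for HOXB1 and 3 higher and 1 lower for HOXB4. HOXB8 and HOXB9 had passed the filter on low values with 0 non-toxic libraries, so these counts of calls are no independent evidence. These tests share their control libraries, so they are not independent. Most calls were small, 48 of them under 0.3 on the log2 scale and 25 at 0.5 or more, and 36 were lost when some single library was left out. Over the 16 non-toxic compounds 0 of 144 member tests were called in limma, with 10 at an unadjusted p under 0.05, where 2% of all gene tests were called. Ibuprofen, whose day 8 library stood apart, gave 5161 of those 5231 gene calls, and the other 15 compounds gave 70, which is 0.0286% of their gene tests.

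Outside okadaic acid, vincristine and carbamazepine, 8 calls reached 0.5. Arsenic (5 µM) had 7 members called, where 81.6% of all tested genes were called, with HOXB2 at 1.17 ± 0.15, HOXB9 at 0.97 ± 0.06, HOXB3 at 0.65 ± 0.08 and HOXB5 at 0.53 ± 0.06. Its HOXB9 stood at 2.44 TPM on day 1, when no non-toxic library passed 0.12. Busulfan (50 µg/ml) had 6 members called, where 64.6% of genes were, with HOXB2 at 1.04 ± 0.17 and HOXB3 at 0.51 ± 0.08. Cytosine Beta-D-arabinofuranoside (5 µM) had 6 called, where 68.2% of genes were, with HOXB2 at 0.99 ± 0.17 and HOXB5 at 0.71 ± 0.07. Cadmium (50 µM) had 5 called, where 84% of genes were, and HOXB9 was its largest at 0.42 ± 0.04. With compounds that changed few genes the calls were small: propylthiouracil had 3, where 0.172% of genes were called, with HOXB6 at 0.25, HOXB9 at 0.22 and HOXB8 at 0.17, and L-phenylalanine had 1, where 0.0613% of genes were called, with HOXB8 at 0.17. Of these 4 only HOXB9 kept its call without any single day.

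The other toxic compounds as a class were set against the non-toxic ones day by day, in a comparison added after the data were seen. HOXB9 was called higher on days 10 and 21 and HOXB8 on day 21. Both genes had passed the filter on low values with 0 non-toxic libraries, through toxic ones alone. On day 10, HOXB9 was at a median of 0.27 TPM over 19 toxic libraries against 0 over 15 non-toxic ones, and 15 of 19 were above all non-toxic (0.46 ± 0.13, adjusted p = 0.0201), where 0.705% of genes were called higher. On day 21, HOXB9 was above all 11 non-toxic libraries in 15 of 17 (0.46 ± 0.15, adjusted p = 0.0046) and HOXB8 in 11 of 17 (0.57 ± 0.18, adjusted p = 0.00588), where 7.83% of genes were called higher. All 11 non-toxic libraries of day 21 listed both genes at 0. A slope of the log2 deviation per doubling of transcript length was taken over genes at a mean of 10 TPM or more. On day 21 its median was -0.33 in the toxic libraries and 0.00 in the non-toxic ones. The 2 retinoid libraries had slopes of -0.42 and -0.23 on day 21 and -0.12 and -0.10 on day 39. They lay apart on day 10 (-0.09 and 0.11) and day 15 (-0.19 and 0.01). The part of that trend in these calls, in the retinoid time courses and in the isomer comparison was not tested.

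HOXB3 and HOXB5 were called higher on day 4 (where 10.5% of genes were called higher), HOXB2 on day 6 (4.93%) and HOXB2 on day 39 (9.82%). On day 39 HOXB2 stood at 6.44 ± 2.56 TPM (SD, n = 20) against 3.97 ± 0.87 (n = 14), with 12 of 20 above every non-toxic library (0.49 ± 0.17, adjusted p = 0.0326). Without the okadaic acid day 2, vincristine day 4 and carbamazepine day 10, 15 and 21 libraries, the day 4 calls were HOXB5 and HOXB8 (where 12.9% of genes were called in either direction), the day 6 call was HOXB2 (11.2%), and the day 10 calls were HOXB8 (0.29 ± 0.07) and HOXB9 (0.34 ± 0.07; 5.04%). Day 15 then gave HOXB8 (13.9%), day 21 HOXB8 (0.35 ± 0.08) and HOXB9 (0.30 ± 0.08; 53.6%), and day 39 HOXB2, HOXB4, HOXB8 and HOXB9 (20.8%). The retinoid libraries and the other toxic libraries carry 1 series of titles and the non-toxic libraries another, and the part of any shared handling in these low values was not tested.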

How the data were processed

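RNA from H1-NPC wells was sequenced after a TruSeq RNA v2 preparation, per the labels. The submitters' processing notes name Bowtie 0.12.8, RSEM 1.2.1 and CASAVA 1.8.2, and the genome build hg19, without an order of steps. The deposited table holds TPM per gene, computed by the authors, with no read counts, so no interval from depth could be given and only the number of libraries limits precision. Groups were taken from the compound and day in the labels. Genes at 1 TPM or more in 5 or more libraries (16318 of 19084) were tested on log2(TPM + 1) in limma 3.58.1 (R 4.3.3). The fits had an intensity trend and day as factor, and genes were called at a Benjamini-Hochberg adjusted p under 0.05 over all tested genes. Compound was a random block (correlation 0.0212) in the fits of single compounds against non-toxic libraries and in the late-minus-early fit. The isomer, non-toxic day and class day-by-day comparisons had no block, and treated libraries of 1 compound on different days as independent. Errors of differences are SE. The scripts were tested on simulated data. The members, the lists and the tests were chosen with earlier results of these data known. Non-members were named where they were most like the members by Pearson's r, among the 4 largest called differences of a list under all-trans retinoic acid, or neighbours of the cluster, and the text marks exceptions. SOX2, NES, T, MSGN1, MNX1 and the CDX genes are given as defining markers or listed factors. The promoter sequence and gene order are from RefSeq on GRCh38 and transcript lengths from GENCODE v29, a build other than that of the values. Some genes and sequences are not reported here. Alternatives were another pseudocount, no filter, median centring, no block, DMSO controls only, separate windows and days left out.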

Additional observations from a re-analysis of the deposited data

Results flagged for a closer look

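In groups of 4 to 10 libraries the highest summed HOXB level stood far from the others in 3 of 22 groups tested. Each group holds 1 compound over different days, so the usual rate of about 1 in 20 does not apply. The glycerol library of day 39 was at 7.63 TPM with the next at 1.47, a gap of 0.807 of the log2 range. The saccharin library of day 39 was at 9.83 with the next at 1.95, a gap of 0.779. Both belong to compounds sampled mostly on early days, and day 39 was also the day on which HOXB2 to HOXB6 had risen in the non-toxic libraries as a whole. The non-toxic libraries of that day ran from 4.92 to 9.83 TPM. The vincristine library of day 4 was at 87.4 TPM with the next at 3.05, a gap of 0.760.

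Differences between groups that were tested directly were those of HOXB9 between the isomers, at 0.63, and of the late against the early retinoid effect, at -0.78 for HOXB1, 0.91 for HOXB6, 2.91 for HOXB7, 1.99 for HOXB8 and 4.20 for HOXB9.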

How the results depend on the processing

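No paired analysis was possible because replicate numbers follow accession order only and each compound has 1 library a day; same-day wells were matched through the day term. All 9 members stayed called under both retinoids in every alternative run, and the non-toxic day comparisons kept 0 and 5 members. Between the isomers 1 member was called in all but the windows of days 1 to 6 and days 8 to 39, which gave 0 each. With single days left out, the late-minus-early count ran from 5 to 7 members, and HOXB6 from -0.0923 to 1.33, the lowest and of opposite sign without day 1. Median centring gave 1 call in the non-toxic compounds, HOXB1 under ibuprofen (0.15). The other toxic compounds gave 71 to 92 calls, with 82 without okadaic acid day 2, 77 without vincristine day 4 and 71 without these and carbamazepine days 10 to 21, all added after seeing the data. Depth is not known, and changes well under 1 TPM lie near what a library can list above 0.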
